A study of Mus musculus with 4 samples.

Results

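The genes described here are the matrix metalloproteinases (Mmp), the Adam and Adamts proteases, the Adamts-like proteins (Adamtsl) and the tissue inhibitors of metalloproteinases (Timp). They were chosen by gene symbol alone, and 84 of the 23997 genes in the table carry such a symbol: 23 Mmp, 33 Adam, 19 Adamts, 5 Adamtsl and 4 Timp genes. RNA-Seq compared Lgr5+ progenitors with Lgr6+ progenitors of the neonatal mouse cochlea, which both can generate hair cells (HCs) in culture. Lgr5-EGFP-IRES-CreERT2 mice gave the Lgr5+ progenitors and Lgr6-EGFP-IRES-CreERT2 mice gave the Lgr6+ progenitors, in each case as EGFP+ cells of the cochlea that were sorted on postnatal day 3 from a strain labelled C57BL/6. Both populations therefore carried an EGFP and CreERT2 insert at an *Lgr* gene that drives it, and no other treatment is given in the labels. The labels list 2 libraries for each population, 4 in all, while the methods describe RNA of each population that was divided into fractions, so the libraries may share an RNA extraction.

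These proteins all act at the cell surface or outside the cell. Mmp enzymes are zinc proteases that are made as inactive proenzymes and cut collagens, laminins and other matrix proteins, and Timp proteins bind and block their active site. Adam proteins sit in the cell membrane, where the active ones cut off, or shed, the outer parts of receptors and ligands such as Notch, ErbB ligands and cadherins, while Adamts enzymes are secreted and trim proteoglycans and procollagens. In the cochlea such enzymes matter for the basilar membrane and the tectorial membrane, which are built of collagens and glycoproteins, and *Adam10* is known for the cut of Notch receptors after ligand binding.

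The values are FPKM, a level per length of transcript and per depth of sequencing, and the table holds 1 combined value for each gene in each population. The spread between replicates is therefore unknown, no test could be made, and every difference given here lacks a replicate check. A gene was kept when either population reached an FPKM of 1, which held for 13436 genes and for 38 of the 84 members. The log2 change is log2(FPKM + 1) in the Lgr6+ progenitors minus that in the Lgr5+ progenitors, on which low genes look less changed than they are, and a gene was counted as different when it was at least 1.5-fold apart on this scale. FPKM keeps no read counts, but low values lie on steps. Among genes with 1 annotated transcript, 97 products of FPKM and transcript length (less 200 bases) lay at a step of 0.128 in the Lgr5+ progenitors against a mean of 6 in windows beside it, and 39 lay at a step of 0.0403 in the Lgr6+ progenitors against 3.5. The step was 3.19 times as large in the Lgr5+ progenitors, so a low gene was read more finely in the Lgr6+ progenitors. Numbers of steps given for single genes rest on their longest annotated transcript, and intervals made from them cover counting error only and hold only where a step stands for 1 fragment.

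The sorted populations held supporting cell genes and also genes of other cell types. Of 10 supporting cell and prosensory markers, 3 were higher in the Lgr5+ progenitors, 2 were higher in the Lgr6+ progenitors and 5 were within 1.5-fold, with summed FPKM of 3887 and 3545, most of it from *S100a1* (2959 and 3177). *Sox2*, one of the 3, had an FPKM of 140 in the Lgr5+ progenitors and 54.8 in the Lgr6+ progenitors. *Lgr5* itself had 9.65 in the Lgr5+ progenitors and 24.99 in the Lgr6+ progenitors, and *Lgr6* had 2.06 and 2.90, so the *Lgr5* transcript was higher in the population sorted for *Lgr6*. The paper describes the Lgr6+ cells as part of the Lgr5+ progenitors, and nearly all sorted cells of both as stained for EGFP and Sox2. The part of the inserts in the *Lgr5* and *Lgr6* values was not tested. For the markers of macrophages and myeloid cells, the summed FPKM was 1.47 in the Lgr5+ progenitors, where 6 of 9 were listed at 0, and 256 in the Lgr6+ progenitors. The 7 that were kept all passed 1.5-fold toward the Lgr6+ progenitors, but all 7 reached an FPKM of 1 only there. For a kept gene listed at 0 in the other population, the filter fixes that call. *Cx3cr1*, which was not kept, had 0.215 and 0.681. *Ptprc*, which marks all leukocytes, was listed at 0 in the Lgr5+ progenitors and at 0.00814 in the Lgr6+ progenitors. All 8 endothelial markers were at least 1.5-fold higher in the Lgr6+ progenitors, with summed FPKM of 26.5 and 157. Of these, *Pecam1*, *Kdr*, *Flt1* and *Tek* reached an FPKM of 1 only in the Lgr6+ progenitors. Of 12 mesenchyme and fibrocyte markers 6 were higher in the Lgr6+ progenitors and 1 in the Lgr5+ progenitors, with sums of 345 and 636, and of 6 kept Schwann cell and glial markers 4 were higher in the Lgr6+ progenitors, with sums of 520 and 1632. HC markers summed to 708 and 911, with 5 of 7 higher in the Lgr6+ progenitors, while 4 of 5 kept erythroid genes were higher in the Lgr5+ progenitors, with sums of 630 and 108. For the pericyte and smooth muscle list the sums were 11.3 and 16.9, and for the neuronal list they were 114 and 127. In such bulk values, more cells of a type and more RNA per cell cannot be told apart, and the part of these other cells in the results below was not tested.

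Most members were listed at 0 or had a low FPKM. Both populations were listed at 0 for 23 of the 84 members, and a further 23 had an FPKM between 0 and 1 in at least 1 population, the highest of them *Adam12* with 0.845 in the Lgr6+ progenitors. An exact 0 can also be a failed estimate, so such genes are only said to be listed at 0. Of the 21 Adam genes known mainly from the male germ line, 3 were kept and 12 were listed at 0 in both populations. All 8 secreted collagenase, stromelysin and matrilysin genes (*Mmp1a*, *Mmp1b*, *Mmp3*, *Mmp7*, *Mmp8*, *Mmp10*, *Mmp12* and *Mmp13*) were listed at 0 in the Lgr5+ progenitors, and 6 of them were listed at 0 in the Lgr6+ progenitors too. The summed FPKM of all members was 327.2 in the Lgr5+ progenitors and 349.5 in the Lgr6+ progenitors, which was 0.0434% and 0.0557% of the summed FPKM of all genes.

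A few genes made up much of that sum. *Mmp14*, the membrane-type collagenase also called MT1-MMP (chromosome 14, bases 54431598 to 54442456, GRCm38), had the highest FPKM of the members in both populations, with 73.8 in the Lgr5+ progenitors and 54.5 in the Lgr6+ progenitors. *Adam10* (chromosome 9, bases 70678944 to 70780229), the Notch and cadherin sheddase, came next in both with 38.9 and 42.0. *Timp2* (chromosome 11, bases 118301061 to 118355411), which blocks Mmp enzymes and also links proMmp2 to Mmp14 at the membrane, had 35.9 and 37.6. *Adamts2* was in the fourth place in the Lgr5+ progenitors and *Mmp2* in the third place in the Lgr6+ progenitors. Together *Mmp14*, *Adam10*, *Timp2* and *Mmp2* held 51.3% of the members' summed FPKM in the Lgr5+ progenitors and 49.2% in the Lgr6+ progenitors. Among all kept genes, 89.4% had a lower FPKM than *Mmp14* in the Lgr5+ progenitors and 87.1% in the Lgr6+ progenitors. The median FPKM over the 38 kept members was 3.28 in the Lgr5+ progenitors and 4.56 in the Lgr6+ progenitors, so most kept members were of low level, and 20 of the 38 stayed below an FPKM of 5 in both populations.

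**Figure D1:**
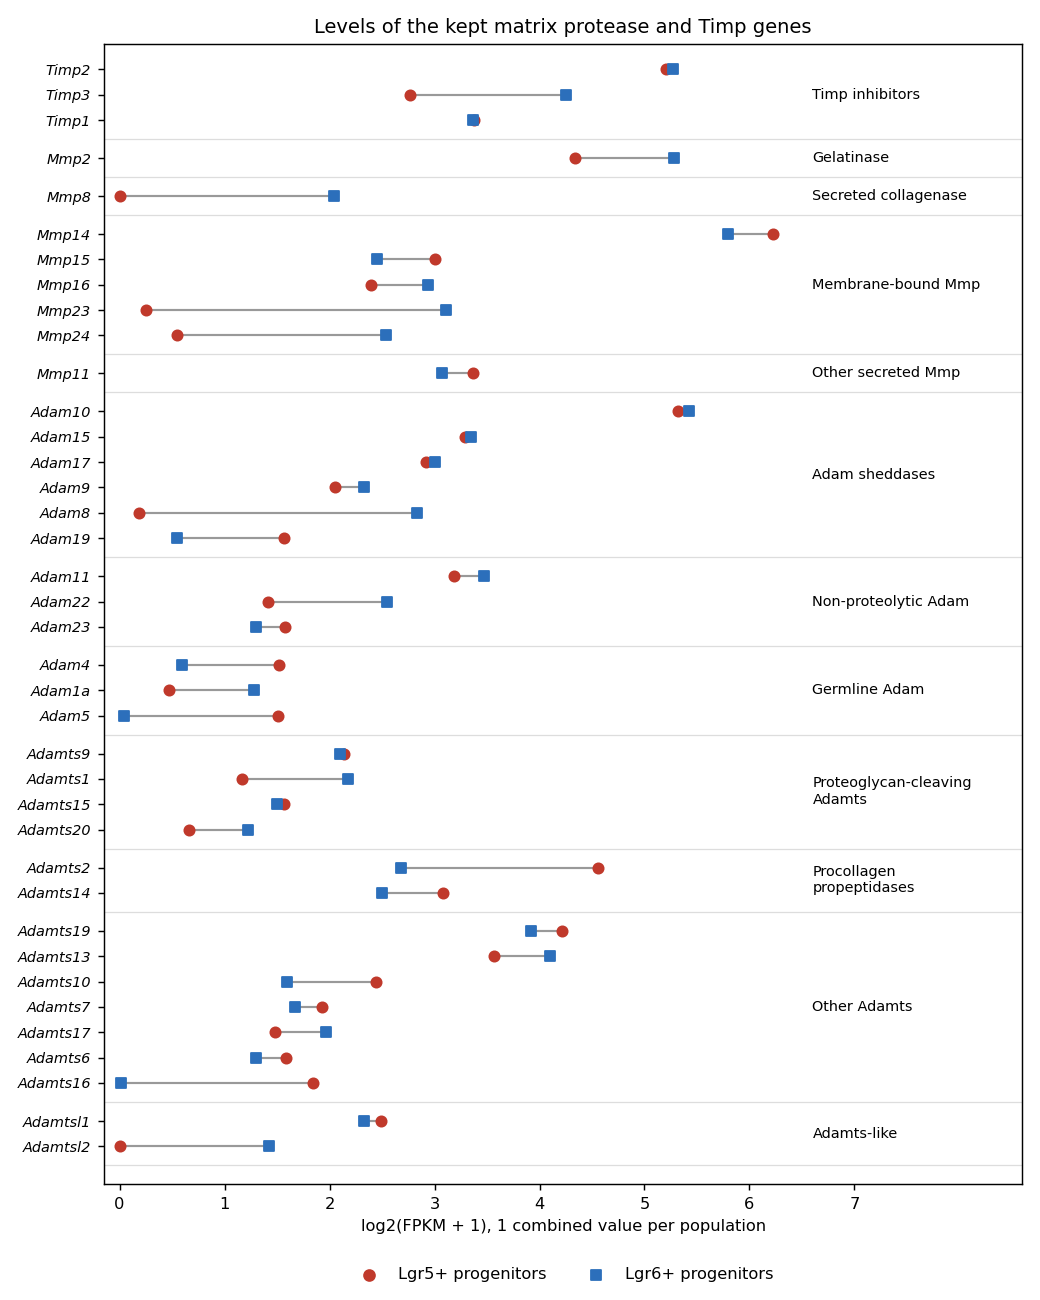
Level of each of the 38 kept members on the log2(FPKM + 1) scale, grouped by class, with a red circle for Lgr5+ progenitors, a blue square for Lgr6+ progenitors and a grey line between them; each point is 1 combined value with no error. *Mmp14*, *Adam10* and *Timp2* lie highest with short lines, while *Mmp23*, *Adam8*, *Mmp8*, *Adamts2* and *Adamts16* have long lines.

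Many of the Mmp genes listed at 0 lie together. The 10 Mmp genes on chromosome 9 (from 7272514 to 7699585, GRCm38) form a cluster, of which only *Mmp8* was kept and 7 were listed at 0 in both populations. Promoter windows of 300 bases on GRCm38.p6, from 250 bases before the start site to 50 after it, were at hand for 53 of the 84 members, including all 10 of the cluster. All 84 have a RefSeq gene, so the counts below leave out members that lacked a window here. They cover 25 of the 38 kept members and 28 of the 46 others. These windows were searched on both strands for an AP-1 site, a PEA3 site of Ets factors, a TATA box and a GC box, motifs that are classically described in promoters of this family and that were picked after the levels had been seen. The AP-1 letters TGANTCA were in 0 of the 25 promoters of kept members and in 11 of the 28 promoters of members below an FPKM of 1 in both populations (39.3%), against 7.93% of 27025 promoters of all genes. The 11 were those of *Mmp1a*, *Mmp1b*, *Mmp3*, *Mmp7*, *Mmp10*, *Mmp13*, *Mmp20*, *Adam1b*, *Adam20*, *Adam25* and *Adam29*, so 7 lay in the chromosome 9 cluster. The TATA box letters TATAAA, counted on either strand and at any place in the window, were in 3 of 25 promoters of kept members and in 11 of 28 of the others. They were in 14.2% of all promoters and in 8 of the 10 of the cluster. A GC box, spelled GGGCGG, was in 18 of 25 (72.0%) and in 7 of 28 (25%), against 35.9%, and in none, 0 of 10, of the cluster. The PEA3 letters AGGAAG were in 8 of 25 and 13 of 28, against 35.1% of all promoters. Base composition moved with this split: the median GC content was 66.0% in the promoters of kept members and 43.3% in the others, and its part in the motif counts was not tested. A match is only a match of letters and says nothing about binding of a factor.

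**Figure D2:**
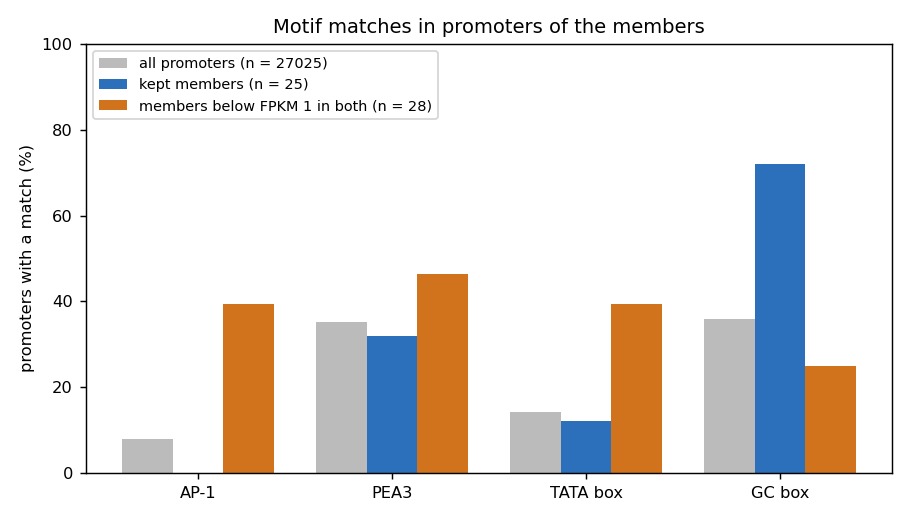
Share of promoter windows, in percent, with at least 1 match to each of 4 motifs, for all 27025 promoters (grey), for the 25 kept members (blue) and for the 28 members below an FPKM of 1 in both populations (orange). AP-1 and TATA box bars are highest for the low members (39.3% each), and the GC box bar is highest for the kept members (72.0%).

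Promoters of 6 members are shown to set genes of the cluster that were listed at 0 beside expressed ones, each 300 bases on the plus strand of GRCm38.p6, 5′ to 3′ in the direction of the gene, with matches to any of the 4 motifs in capitals. Positions are counted from the start site, whose first transcribed base is 0. *Mmp3* (stromelysin-1, chr9:7445572-7445871) and *Mmp13* (collagenase-3, chr9:7272264-7272563) were listed at 0 in both populations, and held AP-1 letters from -46 and from -35, PEA3 letters, and TATA box letters from -7 and from -16. *Mmp8* (chr9:7558179-7558478), the kept gene of the cluster, held a PEA3 match from -220 and no AP-1 letters in this window. Its TATA box letters, from -3, lay on the opposite strand (TTTATA) and across the start site.
Mmp3: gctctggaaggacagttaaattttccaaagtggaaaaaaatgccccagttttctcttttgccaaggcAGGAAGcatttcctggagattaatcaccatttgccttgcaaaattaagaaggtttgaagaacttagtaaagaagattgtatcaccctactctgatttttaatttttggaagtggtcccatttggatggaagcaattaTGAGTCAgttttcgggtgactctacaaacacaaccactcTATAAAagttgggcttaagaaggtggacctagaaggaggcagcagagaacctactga
Mmp13: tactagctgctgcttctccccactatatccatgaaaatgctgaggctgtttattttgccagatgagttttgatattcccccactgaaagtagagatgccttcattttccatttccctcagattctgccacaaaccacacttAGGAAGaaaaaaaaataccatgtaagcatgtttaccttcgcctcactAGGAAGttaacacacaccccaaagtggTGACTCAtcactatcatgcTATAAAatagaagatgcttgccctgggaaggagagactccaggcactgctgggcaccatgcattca
Mmp8: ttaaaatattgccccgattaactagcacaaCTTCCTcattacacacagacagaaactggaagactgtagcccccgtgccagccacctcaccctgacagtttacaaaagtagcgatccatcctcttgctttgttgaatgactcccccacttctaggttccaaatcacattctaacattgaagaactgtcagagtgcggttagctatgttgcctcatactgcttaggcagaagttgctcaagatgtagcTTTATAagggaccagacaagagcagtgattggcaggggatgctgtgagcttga
*Mmp14* (chr14:54431348-54431647) had the highest level of the members, *Timp3* (chr10:86300162-86300461) differed between the populations in favour of Lgr6+ progenitors and *Adamts2* (chr11:50601835-50602134) in favour of Lgr5+ progenitors. All 3 held GC boxes, with *Adamts2* at 5 places from -229 to -17, *Timp3* from -15 and 13 and *Mmp14* from -19 and -13, which abut, and *Mmp14* and *Timp3* also held 1 PEA3 match each.
Mmp14: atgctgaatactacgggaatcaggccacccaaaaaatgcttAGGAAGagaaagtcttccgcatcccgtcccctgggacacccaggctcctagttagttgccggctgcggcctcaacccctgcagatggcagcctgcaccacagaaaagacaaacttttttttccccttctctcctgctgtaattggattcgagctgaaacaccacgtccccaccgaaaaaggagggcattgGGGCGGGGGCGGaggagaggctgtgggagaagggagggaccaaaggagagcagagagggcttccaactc
Timp3: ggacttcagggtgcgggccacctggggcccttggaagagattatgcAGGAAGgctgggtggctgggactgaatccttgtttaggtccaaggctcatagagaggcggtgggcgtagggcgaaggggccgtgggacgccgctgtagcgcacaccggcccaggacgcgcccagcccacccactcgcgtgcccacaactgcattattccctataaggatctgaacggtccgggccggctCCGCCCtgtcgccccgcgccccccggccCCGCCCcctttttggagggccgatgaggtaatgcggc
Adamts2: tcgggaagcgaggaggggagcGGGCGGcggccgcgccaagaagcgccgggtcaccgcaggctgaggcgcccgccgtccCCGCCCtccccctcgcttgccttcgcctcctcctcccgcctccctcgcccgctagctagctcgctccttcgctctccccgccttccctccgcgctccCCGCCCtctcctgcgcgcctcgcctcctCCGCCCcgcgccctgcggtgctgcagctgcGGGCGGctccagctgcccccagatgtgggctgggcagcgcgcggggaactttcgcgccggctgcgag

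At 1.5-fold, with a pseudocount of 1 and no further scaling, the share of members that differed was below that of all kept genes in both directions. Of the 38 kept members 10 (26.3%) were at least 1.5-fold higher in the Lgr6+ progenitors, where 28.5% of all kept genes were, and 7 (18.4%) were at least 1.5-fold higher in the Lgr5+ progenitors, where 23.3% of all kept genes were. When a level of 5 FPKM was asked of either population, 18 members were left. Of these, 4 (22.2%) were higher in the Lgr6+ progenitors, against 24.1% of all such genes, and 2 (11.1%) were higher in the Lgr5+ progenitors, against 24.1%. The median log2 change of the kept members was 0.06, against 0.03 over all kept genes, and ran from -1.88 for *Adamts2* to 2.85 for *Mmp23*. The split depended on the scaling, since 9 members were higher in the Lgr6+ progenitors and 10 in the Lgr5+ progenitors after quantile normalization (24.7% and 26.5% of all kept genes), and 18 and 6 when both columns were scaled to the same sum (38.7% and 16.8% of all kept genes). At 2-fold, 8 members (21.1%) were higher in the Lgr6+ progenitors, against 18.2% of all kept genes, and 4 (10.5%) in the Lgr5+ progenitors, against 11.7%. The common sum moved the median of all kept genes by 0.26 toward Lgr6+ progenitors. Just past the limit lay *Adamts14* with a log2 change of -0.59, and just inside it lay *Adamts20* with 0.56, *Mmp15* with -0.55, *Mmp16* with 0.54 and *Adamts13* with 0.54.

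**Figure D3:**
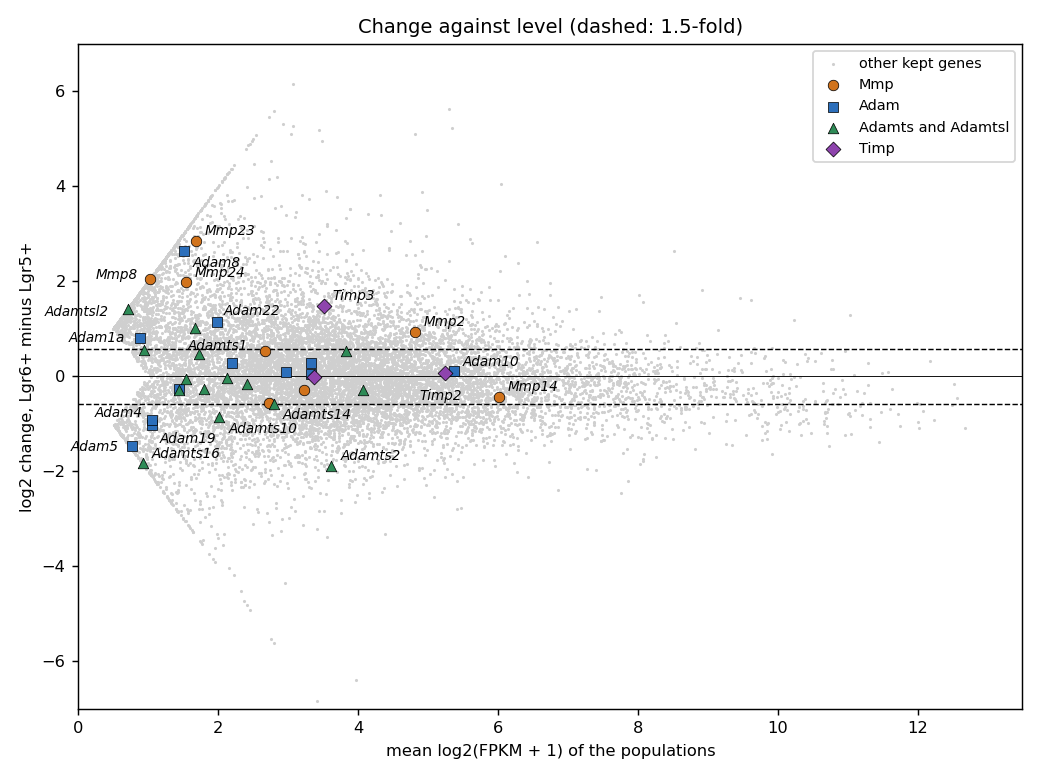
Log2 change, Lgr6+ minus Lgr5+, against the mean log2(FPKM + 1) of both populations for the 13436 kept genes (grey) and the 38 kept members (coloured by family), with dashed lines at 1.5-fold; each point is 1 gene without replicate error. The members spread among the other genes, the largest changes belong to members of low level such as *Mmp23* and *Adam8*, and *Timp3*, *Mmp2* and *Adamts2* stand beyond the lines at higher levels.

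The Timp inhibitors come first, as they bear on all the enzymes. *Timp3* (chromosome 10, bases 86300412 to 86349505), the inhibitor that binds to the matrix and also blocks Adam and Adamts enzymes, had an FPKM of 5.81 in the Lgr5+ progenitors and 18.04 in the Lgr6+ progenitors, a ratio of 3.11 and a log2 change of 1.48. It was the only Timp gene that differed by 1.5-fold. *Timp1* had 9.36 and 9.31, and *Timp2* had the 35.9 and 37.6 given above, log2 changes of -0.01 and 0.07. *Timp4* was near silent, with 0.420 and 0.131, or about 4 steps in each population. The FPKM of *Timp3* was 0.162 times that of *Timp2* in the Lgr5+ progenitors and 0.479 times that of *Timp2* in the Lgr6+ progenitors, a comparison within each population that a common scaling factor does not touch. *Timp1*, *Timp3* and *Timp4* each lie inside a synapsin gene, and the interval that the table gives for them takes in that neighbour too. *Syn3*, the host of *Timp3*, had 4.74 and 7.25, a log2 change of 0.52. *Syn1*, the host of *Timp1*, had 0.115 and 3.06, and *Syn2*, the host of *Timp4*, was listed at 0 and had 0.543. Among the 25 members named by rule, the interval was shared with 3 other genes for *Timp1* and with 2 for *Timp3*. It was shared with 1 other gene for each of *Timp2*, *Timp4*, *Adam8*, *Adam19* and *Mmp24*. How reads of genes on a shared interval were assigned is not given in the sources used here. *Timp3* is also well expressed by endothelial and mesenchymal cells. The endothelial markers were higher in the Lgr6+ progenitors, while the mesenchymal markers were mixed, with much of their sum from *Otos* (5.60 and 248) and with *Lum* (179 and 100.97) higher in the Lgr5+ progenitors. Their part in the value of *Timp3* was not tested.

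Of the 8 kept Mmp genes 4 were at least 1.5-fold higher in the Lgr6+ progenitors and none, 0 of 8, was higher in the Lgr5+ progenitors, against 28.5% and 23.3% of all kept genes, and their median log2 change was 0.74. The counts were 5 and 1 with a pseudocount of 0.1, against 31.3% and 25.6% of all kept genes. After quantile normalization they were 4 and 1, against 24.7% and 26.5%. When 1 FPKM was asked of both populations only 5 Mmp genes were left, and the median became -0.30. Of these, 1 was higher in the Lgr6+ progenitors and 0 in the Lgr5+ progenitors, against 21.4% and 22.5% of all such genes. The gelatinase *Mmp2* (chromosome 8, bases 92827290 to 92853421), which cuts gelatin and type IV collagen, had 19.3 in the Lgr5+ progenitors and 37.9 in the Lgr6+ progenitors, a ratio of 1.97 and a log2 change of 0.94. The other gelatinase, *Mmp9*, was low with 0.458 and 0.681. *Mmp14*, which activates proMmp2, was in contrast lower in the Lgr6+ progenitors, with a log2 change of -0.43 that stayed within 1.5-fold. The FPKM of *Mmp2* was therefore 0.261 times that of *Mmp14* in the Lgr5+ progenitors and 0.697 times that of *Mmp14* in the Lgr6+ progenitors, and that of *Timp2* was 0.486 and 0.691 times that of *Mmp14*. Summed over the families, the Timp genes had 51.5 and the Mmp genes 115 in the Lgr5+ progenitors, against 65.1 and 128 in the Lgr6+ progenitors, a quotient of 0.447 and 0.507.

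The membrane-bound Mmp genes differed among themselves. *Mmp23* (chromosome 4, bases 155650655 to 155654539), which encodes a short membrane protease, had 0.194 in the Lgr5+ progenitors and 7.64 in the Lgr6+ progenitors, a log2 change of 2.85 that was the largest of the members at a pseudocount of 1. The Lgr5+ value stood for only 2 steps and the Lgr6+ value for 234, so the ratio of 39.4 had a 95% counting interval from 10.05 to 305 (exact, Clopper-Pearson). *Mmp24*, or MT5-MMP (chromosome 2, bases 155775342 to 155818367), which is known from neurons and cuts N-cadherin, had 0.462 and 4.79, a log2 change of 1.99 and a ratio of 10.4 with an interval from 6.13 to 18.4. Both genes were thus near silent in the Lgr5+ progenitors and of low level in the Lgr6+ progenitors. *Mmp15* had 7.01 and 4.47 and *Mmp16* had 4.27 and 6.67, log2 changes of -0.55 and 0.54 that stayed within 1.5-fold in opposite directions. *Mmp17* had 0 and 0.150, and *Mmp25* was listed at 0 in both. The secreted *Mmp11*, known as stromelysin-3, had 9.35 and 7.42, a log2 change of -0.30.

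*Mmp8* and *Adam8*, which are both known from leukocytes, were at 0 or low in the Lgr5+ progenitors. *Mmp8* (chromosome 9, bases 7558429 to 7568486), the neutrophil collagenase, was listed at 0 in the Lgr5+ progenitors and had 3.12 in the Lgr6+ progenitors, about 175 steps. *Adam8* (chromosome 7, bases 139978932 to 139995207), a sheddase of myeloid cells, had 0.136 in the Lgr5+ progenitors, about 4 steps, and 6.11 in the Lgr6+ progenitors, about 526 steps. Its log2 change was 2.64, and its ratio of 44.7 had a 95% counting interval from 16.01 to 152. The kept myeloid markers were also higher in the Lgr6+ progenitors, the only population where they reached an FPKM of 1. Among them, *C1qb* was at 0 and 69.9, *Tyrobp* at 0 and 43.0, *Aif1* at 0 and 26.6 and *Csf1r* at 0 and 1.29. Of the neutrophil genes looked up after these values had been seen, *S100a8*, *S100a9*, *Elane*, *Ngp* and *Lcn2* were listed at 0 in both populations, while *Camp* had 9.90 in the Lgr5+ progenitors and 5.02 in the Lgr6+ progenitors. The part of myeloid cells in the values of *Mmp8* and *Adam8* was not tested.

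The Adam sheddases that are broadly expressed differed little. *Adam10* and *Adam17*, the sheddase of ErbB ligands and of tumour necrosis factor, had log2 changes of 0.11 and 0.09, with *Adam17* at 6.56 in the Lgr5+ progenitors and 7.04 in the Lgr6+ progenitors. The FPKM of *Adam10* was 5.94 times that of *Adam17* in the Lgr5+ progenitors and 5.97 times that of *Adam17* in the Lgr6+ progenitors. *Adam15* had 8.79 and 9.20, and *Adam9* had 3.14 and 4.03, log2 changes of 0.06 and 0.28. By the steps, the 95% counting interval of the Lgr6+ to Lgr5+ ratio ran from 1.02 to 1.15 for *Adam10*, from 0.922 to 1.25 for *Adam17* and from 0.910 to 1.21 for *Adam15*, which leaves out the spread between replicates. *Adam19* (chromosome 11, bases 46054502 to 46147347), which sheds neuregulins, was the sheddase higher in the Lgr5+ progenitors, with 1.96 against 0.460, a log2 change of -1.02. *Adam12*, known from muscle and mesenchyme, stayed below 1 with 0.0160 and 0.845.

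The Adam proteins that lack protease activity and act as neural adhesion proteins were all 3 kept. *Adam22* (chromosome 5, bases 8072347 to 8368312), a receptor of secreted Lgi proteins at synapses and on myelinated axons, had 1.66 in the Lgr5+ progenitors and 4.85 in the Lgr6+ progenitors, a log2 change of 1.14. *Adam11* had 8.11 and 10.1 and *Adam23* had 1.98 and 1.47, both within 1.5-fold. The summed FPKM of the Schwann cell and glial markers, 520 and 1632 as given above, was higher in the same population as *Adam22*, and its part in that value was not tested. Of the germ line Adam genes, *Adam5* had 1.84 in the Lgr5+ progenitors and 0.0275 in the Lgr6+ progenitors, or about 37 and 2 steps, and *Adam4* had 1.87 and 0.512, log2 changes of -1.47 and -0.93. *Adam1a* had 0.387 and 1.42, a log2 change of 0.81 that became 0.35 after quantile normalization. These 3 genes thus went in both directions at low levels.

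Of 13 kept Adamts genes 4 were at least 1.5-fold higher in the Lgr5+ progenitors and 1 was higher in the Lgr6+ progenitors, against 23.3% and 28.5% of all kept genes, with a median log2 change of -0.26. The counts became 4 and 3 with a pseudocount of 0.1, against 25.6% and 31.3% of all kept genes. When both columns were scaled to the same sum 14 Adamts genes were kept, and the counts were 3 and 5 with a median of 0.04. Of all kept genes 16.8% and 38.7% were then so, with a median of 0.30. The difference between this family and the Mmp family was not tested, and with 1 FPKM asked of both populations the medians of both families were below 0.

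The procollagen N-propeptidases cut the end from newly made fibrillar collagen. *Adamts2* (chromosome 11, bases 50602085 to 50807573), the main enzyme for types I to III, had 22.5 in the Lgr5+ progenitors and 5.41 in the Lgr6+ progenitors, a log2 change of -1.88 and a ratio of 4.17 in favour of Lgr5+ progenitors. It rests on about 1241 and 948 steps and was the largest change among the 13 members that reached 5 FPKM in both populations. *Adamts14* (chromosome 10, bases 61197112 to 61273419) had 7.49 and 4.65, a log2 change of -0.59 that became -0.38 when both columns were scaled to the same sum. *Adamts3*, the third of the group, was low with 0.0702 and 0.376. Summed over the group, FPKM was 30.1 in the Lgr5+ progenitors and 10.4 in the Lgr6+ progenitors. Their substrates did not move as one: *Col1a2* had 15.8 and 90.2 and *Col3a1* had 5.07 and 32.4, while *Col2a1*, the type II collagen of cartilage and of the tectorial membrane, had 1055 and 627. *Col1a1*, the other type I chain, was low with 1.21 and 2.16 and was within 1.5-fold.

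Among the Adamts genes known to cut proteoglycans such as aggrecan and versican, *Adamts1* (chromosome 16, bases 85793827 to 85803113) had 1.24 in the Lgr5+ progenitors and 3.51 in the Lgr6+ progenitors, a log2 change of 1.01. *Adamts9* had 3.41 and 3.29 and *Adamts15* had 1.97 and 1.84, with log2 changes of -0.04 and -0.07. *Adamts20* had 0.584 and 1.34, while *Adamts4*, *Adamts5* and *Adamts8* stayed below 1, with *Adamts4* listed at 0 in both. Of the substrates, *Vcan* (versican) had 4.93 and 6.44 and *Acan* (aggrecan) had 0 and 0.180. *Adamts1* was thus the only one of this group that differed by 1.5-fold, although *Adamts20* came near.

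Among the remaining Adamts genes, *Adamts16* (chromosome 13, bases 70727798 to 70841845) had 2.58 in the Lgr5+ progenitors, about 99 steps, and 0.00850 in the Lgr6+ progenitors, which was 1 step. The log2 change was -1.83, and the ratio of 304 in favour of Lgr5+ progenitors had a 95% counting interval from 55.4 to 12591. *Adamts18* lay below the limit of an FPKM of 1 but had a like order, with 0.404 against 0.0126, or about 17 and 2 steps. *Adamts10* (chromosome 17, bases 33523646 to 33553782), a protein of fibrillin microfibrils, had 4.44 and 2.02, a log2 change of -0.85. *Adamts19* and *Adamts13*, the protease of von Willebrand factor, were among the 10 highest members, with 17.6 and 14.2 for *Adamts19* and with 10.8 and 16.2 for *Adamts13*, and both were within 1.5-fold. *Adamts6*, *Adamts7* and *Adamts17* lay between 1.45 and 2.90 in both populations and were within 1.5-fold.

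Adamts-like proteins lack the protease part and bind fibrillin and other matrix proteins. *Adamtsl2* (chromosome 2, bases 27079336 to 27108981) was listed at 0 in the Lgr5+ progenitors and had 1.68 in the Lgr6+ progenitors, about 240 steps. *Adamtsl1* had 4.61 and 4.02, a log2 change of -0.16. The other 3 were listed at 0 in the Lgr5+ progenitors and lay between 0.0173 and 0.670 in the Lgr6+ progenitors.

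Partners and substrates of the enzymes were taken as whole lists, and the shares that differed were near those of all kept genes. Of 24 kept genes among 30 activators, inhibitors and partners, 6 were at least 1.5-fold higher in the Lgr6+ progenitors and 5 in the Lgr5+ progenitors. Of all kept genes, 28.5% and 23.3% were. The largest change in each direction belonged to *Serpinf1*, a secreted serpin, with 4.32 in the Lgr5+ progenitors and 73.7 in the Lgr6+ progenitors, and to *Tspan15*, a tetraspanin that steers Adam10 to N-cadherin, with 22.4 and 8.22. Of the other tetraspanin partners of Adam10, *Tspan14* was also higher in the Lgr5+ progenitors with 47.7 and 28.6, *Tspan17* was higher in the Lgr6+ progenitors with 5.58 and 11.3, *Tspan5* (4.39 and 5.94) and *Tspan33* (11.1 and 9.59) were within 1.5-fold, and *Tspan10* was listed at 0 in both. These partners thus differed in both directions. *Rhbdf2*, the iRhom2 that carries Adam17 to the surface, had 9.25 and 16.6, while *Rhbdf1* had 27.9 and 26.1. *Reck*, a membrane-anchored inhibitor of Mmp enzymes, had 6.92 and 3.66, a log2 change of -0.77. *Furin*, the convertase that activates Mmp14 and Adam proenzymes, had 5.01 and 6.09, within 1.5-fold. *Plau*, which makes plasmin, was listed at 0 in both populations, while its receptor gene *Plaur* was at 0 and 2.25.

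Of 25 kept genes among 32 substrates, 7 were higher in each population, against 28.5% of all kept genes for the Lgr6+ progenitors and 23.3% for the Lgr5+ progenitors. *Col4a2*, a basement membrane collagen and a target of Mmp2, had the largest change with 3.39 in the Lgr5+ progenitors and 36.3 in the Lgr6+ progenitors, and its partner chain *Col4a1* had 6.82 and 31.8. The surface proteins on the list, some of which Adam10 cuts, did not go 1 way. *Notch1* (42.1 and 19.8), *Cdh1* (138 and 68.7), *Cdh2* (107 and 60.5) and *Jag1* (108 and 59.2) were higher in the Lgr5+ progenitors. The Notch ligand *Dll1* was the other way, with 7.80 and 17.9. *Epha4* (20.5 and 18.8), *Efnb2* (30.2 and 24.1) and *Hbegf* (8.17 and 8.52) were within 1.5-fold, and *Areg* and *Nrg1* were not kept. All endothelial markers and 4 of 6 kept glial markers were also higher in the Lgr6+ progenitors, and their part in the values of *Col4a1* and *Col4a2* was not tested. *Col1a2* and *Col3a1* are themselves on the list of mesenchyme markers.

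**Figure D4:**
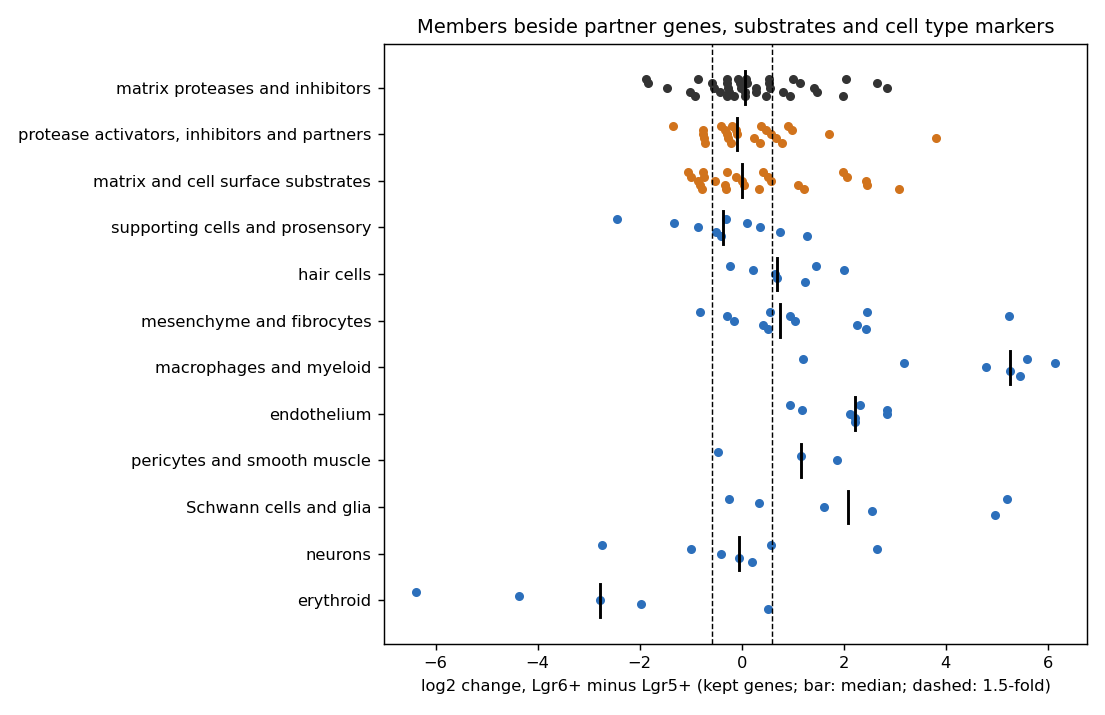
Log2 change, Lgr6+ minus Lgr5+, of the kept genes of each list: the 38 members (black), partners and substrates (orange) and cell type markers (blue), with a bar at each median and dashed lines at 1.5-fold. The medians of the members (0.06), partners (-0.10) and substrates (0.00) lie near 0, while those of the macrophage (5.27), endothelial (2.21) and glial (2.08) markers lie to the right and that of the erythroid genes (-2.78) lies to the left. All kept macrophage markers reached an FPKM of 1 only in the Lgr6+ progenitors.

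Of the 17 members that were at least 1.5-fold apart, 15 stayed so in the same direction under all 4 other choices of pseudocount and scaling. The other 2 were *Adam1a* and *Adamts14*, whose values are given above. The sizes of the changes of low genes depended on the pseudocount, and with 0.1 in place of 1 the log2 change was 5.01 for *Mmp8*, 4.72 for *Mmp23*, 4.71 for *Adam8* and -4.63 for *Adamts16*. *Mmp8* was listed at 0 in the Lgr5+ progenitors, so its value is set by the pseudocount. For *Timp3* it lay between 1.41 and 1.77, for *Mmp2* between 0.94 and 1.21 and for *Adamts2* between -2.04 and -1.69 over all 5 settings.

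**Figure D5:**
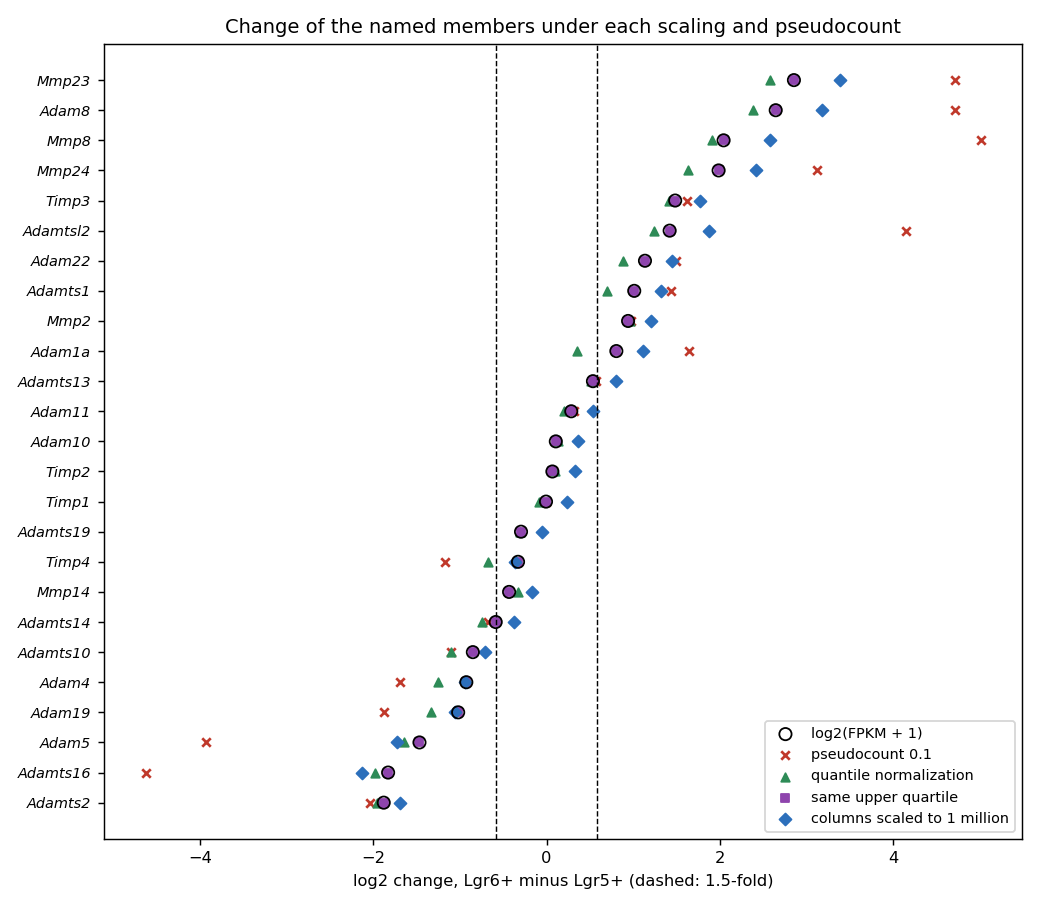
Log2 change, Lgr6+ minus Lgr5+, of the 25 members named by rule under 5 settings: log2(FPKM + 1) as an open circle, which the same upper quartile (purple) fills, a pseudocount of 0.1 (red cross), quantile normalization (green triangle) and columns scaled to the same sum (blue diamond). *Timp3*, *Mmp2* and *Adamts2* stay beyond the dashed 1.5-fold lines in all 5, while the crosses of *Mmp8*, *Mmp23*, *Adam8*, *Adam5* and *Adamts16* lie far from their circles.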

How the data were processed

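RNA-Seq of EGFP+ cells sorted at postnatal day 3 was used, with 4 libraries in the labels, 2 for each population. Per the methods, libraries were made with the SMART-Seq v4 kit, reads were trimmed with Trimmomatic and aligned with TopHat, and Cufflinks gave the values, with versions not given in the sources used here. The authors deposited 1 table with 1 combined FPKM value per gene and population, so read counts per gene and replicate spread are unknown. The paper gives the reads and the mapped share only as ranges over all samples, so the depth of each population is unknown too. Columns of their own comparison (a log2 fold change, a p-value and a q-value) were not used. The labels list the mm10 build and the methods another one. The intervals of 84 of 84 members overlapped their RefSeq gene in GRCm38.p6 and those of 24 of 83 in NCBIM37, so positions are those of RefSeq in GRCm38.p6.

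Members were chosen by symbol. The members, gene lists and classes were chosen with earlier results of these data known. Named with both values were all Timp genes, every kept member at least 1.5-fold apart, and the 10 members with the highest mean log2(FPKM + 1), in all 25. Other members, partners, substrates and markers are named as examples of their lists. A pseudocount of 1 and a minimum FPKM of 1 were used, and the alternatives were a pseudocount of 0.1, other minimum values, quantile normalization, a common upper quartile, a common sum and a limit of 2-fold. Steps of FPKM times transcript length less 200 bases gave exact 95% Clopper-Pearson intervals of ratios for the 83 members with a length. Calculations were made in Python 3.11.15 with numpy 2.4.6, pandas 2.3.3 and scipy 1.17.1, and figures with matplotlib 3.10.9. The calls were also run on simulated data with changes set in advance and without noise. That run checks the arithmetic only and says nothing about how reliable the calls are.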

Additional observations from a re-analysis of the deposited data

How the results depend on the processing

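The counts of members at least 1.5-fold apart depended on the filter and the scaling. The main values were 10 higher in Lgr6+ progenitors, 7 higher in Lgr5+ progenitors and a median log2 change of 0.06. With a minimum FPKM of 5 the counts were 4 and 2, and with both columns scaled to the same sum they were 18 and 6 with a median of 0.37. A stricter filter kept only the 27 members that reached an FPKM of 1 in each population. It gave counts of 4 and 3 with a median of -0.0059. These were 14.8% and 11.1% of the members left, against 21.4% and 22.5% of all genes that passed the same filter. Quantile normalization gave 9 and 10 with a median of -0.034, no filter gave a median of 0, and a limit of 2-fold gave 8 and 4. Fewer genes pass the stricter filters by construction, and the common sum raises every Lgr6+ value relative to Lgr5+, whose sum was larger. For the named members, 94 of 100 values kept their direction and their side of the 1.5-fold limit. The other 6 were *Adam1a* (0.35 after quantile normalization), *Adamts13* (0.80), *Adamts14* (-0.38) and *Timp1* (0.24) at a common sum, and *Timp4* (-1.17 with a pseudocount of 0.1 and -0.67 after quantile normalization). No paired analysis was possible because the table holds 1 combined value per population, and for the same reason no replicate could be left out. Low genes are limited by the coarser step in Lgr5+ progenitors.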
